A study of Homo sapiens with 8 samples.

Results

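ACTA1, ACTA2, TAGLN, MYL9, CNN1, TPM1, TPM2, CTGF, CYR61 and ANKRD1 were examined as a group of 10 genes of contractile actin and of the SRF and YAP programmes in Hep3B, a human hepatocellular carcinoma cell line. They were found by their gene symbols and summed over their transcripts, and 9 of the 10 had counts among the 16040 gene names of the knockout table and the 14955 of the siRNA table. ACTA2 was not analysed here. The list was drawn up with the levels of these genes in the same libraries already known, that is, it was chosen by the level of each gene per library and the fold changes of both comparisons. These are therefore given as a description. Where the text counts how many of them the fit over all genes called, the count supports nothing about them, since the same values chose them. The study set wild-type Hep3B against Hep3B labelled SOX4 knockout, and wild-type Hep3B transfected with control siRNA against Hep3B transfected with STAT6 siRNA, with 2 libraries for each of the 4 conditions. The knockout was made by CRISPR/Cas9. Knockout cells were cultured with puromycin, which the study states for no other cells, so its part cannot be told apart from that of the knockout. The study's methods name lines #1 and #2 for the RNA-seq, while the labels do not tie a library to a line. For the other conditions nothing says that the libraries were separate cultures, and the spread between them may be technical.

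SRF is a transcription factor that binds the CArG box, and its coactivators of the MRTF family (MKL1 and MKL2) enter the nucleus when free actin monomers are taken up into filaments. Genes of actin, myosin and actin-binding proteins, many of them best known from smooth and skeletal muscle, are its classical targets. YAP and its relative TAZ (gene WWTR1) are held out of the nucleus by the Hippo kinases and act through the TEAD factors, for which CTGF, CYR61 and ANKRD1 are the usual readout genes. Both programmes respond to the state of the cytoskeleton, and CYR61 and CTGF are also known as SRF targets. Hepatocytes express little of the muscle-type contractile genes, while activated mesenchymal cells of the liver express much of them.

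The bases before the start sites of ACTA1 and CTGF are shown because they hold the letters by which the programmes are known, the CArG box of SRF and the GGAATG core of TEAD. Of the 9 genes with counts, 6 matched the RefSeq promoter table of build GRCh38.p14 by symbol (CTGF under its name CCN2), and TAGLN, MYL9 and CYR61 did not. The 250 bases before the start site were searched for the CArG box and for GGAATG, the latter on both strands. No match of a motif overlapped one of the other. The sequence of ACTA1 lies at chr1:229434095-229434344 and that of CTGF at chr6:131951373-131951622, both on the minus strand, and capitals mark the matches.
ACTA1: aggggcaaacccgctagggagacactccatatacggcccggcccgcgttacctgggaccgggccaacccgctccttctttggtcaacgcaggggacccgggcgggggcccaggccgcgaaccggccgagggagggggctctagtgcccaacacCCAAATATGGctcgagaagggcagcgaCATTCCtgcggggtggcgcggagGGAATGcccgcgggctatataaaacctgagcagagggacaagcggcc
CTGF: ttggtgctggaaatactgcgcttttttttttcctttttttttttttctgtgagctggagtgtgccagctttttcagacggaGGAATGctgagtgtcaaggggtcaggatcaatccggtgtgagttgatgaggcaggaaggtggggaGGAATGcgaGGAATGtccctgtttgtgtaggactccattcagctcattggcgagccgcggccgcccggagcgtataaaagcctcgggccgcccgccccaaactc
In ACTA1 the CArG box began 97 bases before the start site and GGAATG, once on each strand, began 70 and 47 bases before it. In CTGF, GGAATG was found 169, 104 and 95 bases before the start site. ANKRD1 held it at 220 and 128 bases, the latter within the gene span given below. The windows of ANKRD1, CNN1 and an entry of TPM2 partly overlap the spans of these genes, as their start sites in the promoter entries lie inside those spans. Neither motif was in these windows of CNN1, TPM2 or TPM1, whose table entry is for its internal start. The CArG box was in 1 of the 6 genes and in 1.16% of all 35116 promoter windows of the same length. GGAATG was in 3 of the 6 genes and in 11.9% of all windows. A match describes the letters only.

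RNA was sequenced from stranded mRNA libraries, and the deposited values are expected counts, that is, reads divided by estimation among the transcripts of RefSeq. Library totals ranged from 16266282 to 25353113. Levels are given below as CPM, the counts of a gene relative to the library total after scaling by TMM, and per kilobase of transcript where different genes are compared. The tables were normalized separately, so a level in one was set beside a level in the other only as a value. In the knockout table, 849 of 14415 genes tested passed an adjusted p of 0.05 with edgeR's quasi-likelihood test and Benjamini-Hochberg adjustment, which is 5.89%, and 648 of them, 4.5% of the genes tested, were higher in the libraries with the SOX4 knockout label. The same test called 0 of 13554 genes (0.0%) in the siRNA table, with 14 genes at an unadjusted p under 0.05, and DESeq2 also called 0. Neither fit took the shared library number into account, and the calls with the number as a block are given at the end. The hepatocyte markers ALB, APOA1, APOB and SERPINA1 were present in all 8 libraries, ALB at no less than 5095 CPM.

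SOX4 stood at 798.7 and 265.9 CPM in the Hep3B libraries and at 297.9 and 301.6 CPM in those labelled SOX4 knockout. The Hep3B libraries enclosed both knockout values, so the SOX4 transcript did not separate the groups and did not check the label, and the libraries are named by their labels. The study probed SOX4 protein in the knockout cells by western blot, which the transcript level does not measure. STAT6 was 32.0 and 13.2 CPM in Hep3B and 2.76 and 2.20 CPM in the libraries with the SOX4 knockout label, a log2 fold change of -3.18 ± 0.57 (SE, adjusted p = 0.0275, edgeR). With control siRNA, STAT6 was 42.5 and 31.4 CPM, and with STAT6 siRNA it was 9.92 and 5.98 CPM. Both STAT6 siRNA libraries lay below both controls, with a log2 fold change of -2.22 ± 0.72 and an adjusted p of 1.0 (edgeR).

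Apart from TPM2, the genes of the contractile apparatus were higher in the libraries with the SOX4 knockout label than in Hep3B, by ratios of the means of 3.95 (TPM1) to 11.9 (ACTA1). ACTA1, TAGLN and MYL9 were also higher in both STAT6 siRNA libraries than in both control siRNA libraries, by smaller factors. TPM1 was higher in the knockout table, where the difference lay in transcripts from its upstream start. The YAP target genes were far apart between the Hep3B libraries themselves, and with STAT6 siRNA their groups overlapped. Bulk RNA cannot tell a higher level in each cell from a larger share of cells that express a gene.

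ACTA1 (chr1:229431246-229434097) encodes skeletal muscle alpha-actin. It was 0.397 and 0.422 CPM in Hep3B and 5.72 and 4.01 CPM in the libraries with the SOX4 knockout label, from 7 and 8 counts against 151 and 73. The lower knockout library was 9.51 times the higher Hep3B library, and the fitted log2 fold change was 3.55 ± 0.67 (SE). In the Hep3B and control siRNA libraries ACTA1 was the least abundant of the genes that could be fitted. With control siRNA it was 1.64 and 1.33 CPM, and with STAT6 siRNA 4.63 and 9.41 CPM. The log2 difference between the libraries numbered 1 was 1.44 and that between the libraries numbered 2 was 2.73, and the fitted value was 2.24 ± 0.80.

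MYL9 (chr20:36541484-36549824) encodes a regulatory light chain of smooth muscle and nonmuscle myosin. Its level was 8.12 and 10.3 CPM in Hep3B and 97.5 and 99.1 CPM in the libraries with the SOX4 knockout label. Both pairs lay close together and far from each other, with a ratio of the means of 10.7 and a log2 fold change of 3.42 ± 0.37. In the siRNA libraries MYL9 was 52.6 and 33.6 CPM in the controls and 99.3 and 76.3 CPM with STAT6 siRNA. The groups did not overlap, and within the numbers the log2 difference was 0.92 and 1.18. The antisense gene DLGAP4-AS1 overlaps MYL9 and had at most 10 counts in any library, 7 and 2 in Hep3B and 4 and 2 in the libraries with the SOX4 knockout label.

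TAGLN (chr11:117199324-117204793) encodes transgelin, an actin-binding protein of the calponin family. It was 4.99 and 7.70 CPM in Hep3B and 87.1 and 51.0 CPM in the libraries with the SOX4 knockout label, a log2 fold change of 3.44 ± 0.46. With control siRNA it was 33.9 and 21.5 CPM, and both STAT6 siRNA libraries stood at 63.3 CPM. The groups were apart in both tables, and the log2 differences within the numbers of the siRNA table were 0.90 and 1.55. PCSK7, which overlaps TAGLN on the other strand, was 23.8 and 32.8 CPM in Hep3B and 28.0 and 33.5 CPM in the libraries with the SOX4 knockout label, with overlapping groups. Whether the counting used strand is not given in the sources used here. Of the TAGLN transcripts, NM_003186 held 78.0% and 69.4% of the gene's counts in Hep3B and 96.1% and 92.3% in the libraries with the SOX4 knockout label. Its share was 96.0% and 86.7% with control siRNA and 97.7% and 94.1% with STAT6 siRNA, with overlapping groups.

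CNN1 (chr19:11538717-11550324) encodes calponin 1, a smooth muscle protein that binds actin and restrains myosin. It had 0 and 2 counts in Hep3B and 9 and 8 counts in the libraries with the SOX4 knockout label, too few to be fitted. The ratio of the summed counts, adjusted for library size, was 6.97 with an exact 95% interval of 1.65 to 62.2, which covers counting error only. The siRNA libraries had 9 and 5 counts in the controls and 1 and 9 counts with STAT6 siRNA, a ratio of 0.759 with an interval of 0.301 to 1.84, so no difference was detectable at this depth.

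TPM1 and TPM2 encode tropomyosins, which lie along the actin filament and govern the access of myosin. TPM1 (chr15:63042639-63071915) was 129.5 and 97.7 CPM in Hep3B and 370.0 and 527.9 CPM in the libraries with the SOX4 knockout label, with groups apart and a log2 fold change of 1.98 ± 0.40. Its levels in the siRNA libraries were 167.9 and 216.7 CPM in the controls and 119.6 and 272.1 CPM with STAT6 siRNA. There the STAT6 siRNA libraries enclosed the controls, and the differences within the numbers had opposite signs, -0.49 and 0.33 on the log2 scale. TPM2 (chr9:35681993-35690057) was 8.91 and 1.16 CPM in Hep3B and 6.44 and 4.07 CPM in the libraries with the SOX4 knockout label. The Hep3B libraries differed 7.68-fold and enclosed the others, and the fitted log2 fold change of 0.07 ± 0.86 spans both directions. With control siRNA TPM2 was 4.52 and 2.44 CPM, and with STAT6 siRNA 4.41 and 2.35 CPM, which is nearly the same pair of values.

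The transcripts of TPM1 begin at an upstream start or at an internal start, and the share of each was not used to choose the gene. In the file the former begin at chr15:63042639 and the latter at chr15:63048437, on the plus strand. Transcripts from the upstream start were 88.9 and 65.7 CPM in Hep3B and 335.6 and 492.3 CPM in the libraries with the SOX4 knockout label, a ratio of the means of 5.35. Those from the internal start were 40.6 and 32.0 CPM in Hep3B and 34.4 and 35.6 CPM in the libraries with the SOX4 knockout label, a ratio of 0.965, with overlapping groups. The share of the upstream start was therefore 67.95% ± 1.06 in Hep3B (SD, n = 2) and reached 92.0% ± 1.84 (SD, n = 2) with the SOX4 knockout label. NM_001018006 made up most of the upstream class, and NM_001301289 most of the internal one. The share was 76.5% and 78.4% with control siRNA and 81.3% and 82.6% with STAT6 siRNA, so that the groups were apart by a small step while the level of the gene was not. With 2 libraries against 2, an exact permutation test cannot give a two-sided p below 0.333, and none is given. The transcripts share most of their exons, and their counts are estimates.

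CTGF and CYR61 encode secreted matricellular proteins of the CCN family. CTGF (chr6:131948177-131951379) was 411.9 and 50.7 CPM in Hep3B and 1113 and 1286 CPM in the libraries with the SOX4 knockout label. Both knockout libraries lay above both Hep3B libraries, which differed 8.12-fold, and the log2 fold change was 2.37 ± 0.86. Against the Hep3B library of the same number the log2 difference was 1.43 for number 1 and 4.66 for number 2. CYR61 (chr1:85580761-85583966) was 156.9 and 29.4 CPM in Hep3B and 188.9 and 322.2 CPM in the libraries with the SOX4 knockout label. The groups were apart, but the lower knockout library was only 1.20 times the higher Hep3B library, with a log2 fold change of 1.46 ± 0.71.

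ANKRD1 (chr10:90912100-90921276) encodes an ankyrin repeat protein of muscle sarcomeres and nuclei. It was 363.5 and 46.8 CPM in Hep3B and 225.7 and 421.4 CPM in the libraries with the SOX4 knockout label, with overlapping groups and a log2 fold change of 0.66 ± 0.81. All 3 YAP target genes were thus more than 5-fold higher in Hep3B library 1 than in library 2, by 8.12, 5.33 and 7.77 times for CTGF, CYR61 and ANKRD1. Of all genes tested, 5.16% differed by 4-fold or more (2 on the log2 scale) between these libraries. ACTA1, TAGLN, MYL9 and TPM1 differed between them by ratios of 0.648 to 1.33. SOX4 itself was higher in library 1 too, at 798.7 against 265.9 CPM, and its part in these differences was not tested.

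With STAT6 siRNA the YAP target genes overlapped the controls. CTGF was 266.9 and 428.5 CPM with control siRNA and 156.8 and 383.0 CPM with STAT6 siRNA. The libraries numbered 2 were higher in both conditions, by 1.61 and 2.44 times. Within the numbers CTGF was lower with STAT6 siRNA both times, by log2 differences of -0.77 and -0.16, with a fitted value of -0.37 ± 0.61. CYR61 was 93.7 and 153.8 CPM against 81.9 and 186.7 CPM, with differences of opposite sign, -0.19 and 0.28. ANKRD1 was 90.1 and 367.9 CPM with control siRNA and 38.7 and 299.4 CPM with STAT6 siRNA. It had the widest spread by number, 4.09 and 7.73 times higher in the libraries numbered 2, and it was lower with STAT6 siRNA within both numbers, by -1.22 and -0.30. SOX4 was likewise 2.97 and 3.35 times higher in the libraries numbered 2, and its part was not tested.

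Of the 10 genes, 8 were fitted in the knockout comparison, all 8 lay above 0 and 4 were called (ACTA1, TAGLN, MYL9 and TPM1). Of all genes tested 5.89% were called, and nothing is read from the difference because the members were chosen by these values. The median log2 fold change was 3.42 for the 5 contractile genes fitted and 1.46 for the 3 YAP target genes, and the latter ran from 0.70 to 3.06 as each library was left out. The median over all genes was 0.01. Both knockout libraries lay above both Hep3B libraries for 30.6% of all genes tested. The calls depended on which library was left out, both among the 8 genes and over all genes. Such a fit keeps 1 library in a group, so only effect sizes are given here. As each library was left out, the log2 fold change of TPM2 was -0.76 to 2.11 and that of ANKRD1 -0.17 to 2.73. ACTA1, TAGLN and MYL9 stayed between 3.02 and 3.78.

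With STAT6 siRNA, 5 of the 8 genes lay above 0 and 3 below. In the fit without the library number none was called, as none of all genes (0.0%) was. Only 14 of 13554 genes had an unadjusted p under 0.05 in that fit (edgeR), so it had little power for any gene. The calls with the number as a block, which differ, are given at the end. The median log2 fold change was 1.03 for the contractile genes and -0.37 for the YAP target genes, beside -0.03 for all genes. As each library was left out, the former ran from 0.66 to 1.45 and the latter from -1.15 to 0.525, so the latter has no firm sign. With no filter on low counts the median of the contractile genes was 0.52. ACTA1, TAGLN and MYL9 were the genes whose groups did not overlap, and both STAT6 siRNA libraries lay above both controls for 2.74% of all genes. In a fit of all 8 libraries, 11 of 14313 genes (0.0769%) were called as different between the perturbations, and 0 of the 8 genes were among them. The largest differences among the 8, knockout minus siRNA on the log2 scale, were 2.67 ± 1.06 for CTGF and 2.27 ± 0.72 for MYL9. Their adjusted p was 0.595 and 0.366 (edgeR), so this fit, which left out the library number, showed a difference for neither gene. With the number as a block, 97 genes (0.678%) were called, MYL9 among them.

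Per kilobase of transcript, ANKRD1 and CTGF were the most abundant of the 9 genes in Hep3B library 1, at 184 and 176 CPM per kilobase, and TPM1 was the most abundant in library 2, at 56.9. In the libraries with the SOX4 knockout label CTGF led with 476 and 550 CPM per kilobase, followed by TPM1 with 215 and 307. ANKRD1 with 114 and 213, CYR61 with 82.5 and 141 and TAGLN with 93.8 and 55.0 came next. The libraries of CYR61 overlapped those of ANKRD1, and those of TAGLN overlapped those of CYR61. MYL9 followed at 34.6 and 35.1, then TPM2 at 5.44 and 3.44 and ACTA1 at 3.84 and 2.69, which overlapped. CNN1 was the lowest at 0.209 and 0.269. With STAT6 siRNA, TAGLN stood at 68.2 CPM per kilobase in both libraries and MYL9 at 35.2 and 27.0, close to the values in the libraries with the SOX4 knockout label. In the controls of the 2 tables they were unequal, with TAGLN at 5.38 and 8.30 in Hep3B and at 36.5 and 23.2 with control siRNA. These levels come from tables normalized separately.

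Of the factors that act on these genes, none passed the test in either comparison. SRF was 57.7 and 92.5 CPM in Hep3B and 63.0 and 104.5 CPM in the libraries with the SOX4 knockout label (adjusted p = 0.839, edgeR). Its coactivators MKL1 and MKL2 had log2 fold changes of 0.42 ± 0.36 and 0.44 ± 0.36. YAP1 was 159.9 and 133.8 CPM in Hep3B against 78.5 and 136.8 CPM, with a log2 fold change of -0.45 ± 0.39. WWTR1, the gene of TAZ, had the largest value among these factors, at 125.7 and 42.8 CPM in Hep3B and 256.5 and 264.7 CPM in the libraries with the SOX4 knockout label. Its groups were apart, with a log2 fold change of 1.63 ± 0.52 and an adjusted p of 0.103 (edgeR). TEAD1, TEAD2 and TEAD3 lay between 0.23 and 0.52 and TEAD4 at -0.33. With STAT6 siRNA the log2 fold changes of these 9 factors lay between -0.41 for WWTR1 and 0.45 for TEAD3.

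Among 28 other cytoskeletal targets of MRTF and SRF, 26 were tested in the knockout table, 22 lay above 0 and 4 below, and 2 rose and 0 fell. Of all genes tested 4.5% were called higher. The median log2 fold change was 0.52, beside 0.01 for all genes, and ran from 0.18 to 0.70 as each library was left out. MYLK, the myosin light chain kinase, rose from 15.1 and 14.1 CPM to 76.2 and 51.5 CPM (log2 fold change 2.13 ± 0.38, adjusted p = 0.0275, edgeR). ACTG2, smooth muscle gamma-actin, had 0 counts in both Hep3B libraries and 22 and 17 counts in the libraries with the SOX4 knockout label, at least 10.7-fold higher against a floor of 3 counts over the group (adjusted p = 0.0419, edgeR). FLNC, a filamin of muscle, was 183.5 and 830.4 CPM in Hep3B and 169.9 and 139.4 CPM in the libraries with the SOX4 knockout label, a value set by Hep3B library 2. FILIP1L was 112.1 and 10.4 CPM against 276.0 and 115.1 CPM, a log2 fold change of 1.67 ± 0.93. MYLK was called in 8 of 10 other settings and in 2 of 4 that left out a library, and ACTG2 in 3 of 8 and in 0 of 4. With STAT6 siRNA, 24 of them were tested, 15 lay above 0 and 0 were called, with a median of 0.15 and MYLK at -0.12 ± 0.71.

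The immediate early genes, which SRF drives through the TCF factors and not the MRTF family, are counted apart. Of 11 listed, 10 were tested in the knockout table, 4 lay above 0, 6 below, 0 rose and 1 fell. Over all genes tested, 5.89% were called in either direction. The median of -0.16 has no firm sign, since it was 0.16 with leading transcripts only and ran from -0.60 (without SOX4 knockout library 2) to 0.57 (without Hep3B library 1). ATF3, a stress-induced transcription factor, fell from 336.1 and 185.4 CPM to 35.3 and 35.5 CPM (log2 fold change -2.88 ± 0.42, adjusted p = 0.0186, edgeR). EGR1 was 106.5 and 24.6 CPM in Hep3B against 121.7 and 233.6 CPM, and JUNB was 195.1 and 79.5 CPM against 86.3 and 368.6 CPM. Both were lower in Hep3B library 2 than in library 1. FOSB had a log2 fold change of -2.09 ± 0.65. With STAT6 siRNA, 4 of 10 lay above 0 and 0 were called.

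Of 23 other YAP, TAZ and TEAD targets 21 were tested in the knockout table, 14 lay above 0 and 7 below, and 4 rose and 0 fell. The share called higher over all genes tested was 4.5%. Their median was 1.32 and ran from 0.67 to 2.23 as each library was left out. CCDC80, a matrix protein, rose from 0.795 and 0.686 CPM to 49.7 and 60.2 CPM (log2 fold change 6.20 ± 0.46, adjusted p = 0.00384, edgeR). AXL, a receptor tyrosine kinase, rose from 1.31 and 0.528 CPM to 19.6 and 31.7 CPM, by 4.80 ± 0.62 on the log2 scale. MYOF, a membrane repair protein, rose by 2.71 ± 0.42, and FSTL1, a secreted glycoprotein, from 4.37 and 3.38 CPM to 23.8 and 139.0 CPM. Unlike CTGF, CYR61 and ANKRD1, these 4 genes were at low levels in both Hep3B libraries, at most 5.28 CPM. CCDC80 was called in all 4 settings that left out a library, AXL and FSTL1 in 3 and MYOF in 2. With STAT6 siRNA the values lay mostly below 0, as 20 were tested, 3 lay above 0 and 17 below, 0 were called, and the median was -0.18, which ran from -0.87 to 0.43 as each library was left out.

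The Hippo pathway restrains YAP and TAZ. Of 19 of its components 18 were tested in the knockout table and 0 were called by edgeR, with WWTR1 the 1 gene at an unadjusted p under 0.05. Over all genes tested, 5.89% were called and 3752 of 14415 had an unadjusted p under 0.05, so WWTR1 does not stand out by this. The median of -0.11 has no firm sign, since it ran from -0.17 to 0.19 over the other settings that kept all libraries. AMOT was at 1.15 ± 0.52, NF2 at 0.79 ± 0.39 and the kinase STK4 at -0.83 ± 0.37.

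Some markers of other cell types were higher in the same libraries, where 4.5% of all genes tested were called higher. Of 8 fibroblast markers 4 had counts in the knockout table, and their summed level was 8.34 and 8.65 CPM in Hep3B and 102.9 and 80.7 CPM in the libraries with the SOX4 knockout label. Most of it was LUM, a matrix proteoglycan, which rose from 0.624 and 0.739 CPM to 85.5 and 54.2 CPM (log2 fold change 6.67 ± 0.50, adjusted p = 0.00384, edgeR). PDGFRB rose from 2.84 and 1.27 CPM to 9.88 and 13.9 CPM (adjusted p = 0.0494), a call kept in 4 of 10 other settings and in 2 of 4 that left out a library. COL1A1 was 0.965 and 5.43 CPM against 5.83 and 9.35 CPM, and PDGFRA, the 1 of the 4 below 0, was 3.92 and 1.21 CPM against 1.70 and 3.24 CPM. The sum was 9.89 and 9.51 CPM in the controls and 17.9 and 12.5 CPM with STAT6 siRNA. Of 7 smooth muscle markers 5 had counts in the knockout table, with a sum of 213.4 and 73.9 CPM in Hep3B and 72.8 and 114.6 CPM in the libraries with the SOX4 knockout label, nearly all of it SMTN. ACTG2 was at 0 in both Hep3B libraries, and DES, the muscle filament desmin, had 0 and 2 counts against 22 and 21 (ratio 17.6, exact 95% interval 4.59 to 150.0). LMOD1 and SYNPO2 were under 1 CPM in all 4 libraries of the knockout table. MYH11 and MYOCD were not analysed here. Of 8 skeletal and cardiac muscle markers 3 had counts, with a sum of 8.17 and 9.07 CPM against 17.3 and 7.53 CPM. The part of these markers in the levels of the contractile genes was not tested.

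Hepatocyte markers were mostly higher too. All 10 were tested in the knockout table, 9 lay above 0, 3 rose and 0 fell, with a median of 1.53. Over all genes tested, 4.5% were called higher. TTR rose from 20.9 and 18.4 CPM to 247.4 and 99.1 CPM (log2 fold change 3.14 ± 0.50, adjusted p = 0.0223, edgeR), FGB rose by 2.53 ± 0.54 and APOA1 by 2.41 ± 0.51. SERPINA1, at 2709 and 2034 CPM against 9664 and 9337 CPM, had an adjusted p of 0.0878. With STAT6 siRNA all 10 lay above 0 with a median of 0.36, and 0 were called. Their part in the result was not tested either.

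The genes whose profile over the 8 libraries was most like the mean profile of 6 contractile genes were CEMIP, SUSD6 and SLC39A11, with Pearson correlations of 0.984, 0.973 and 0.965. MYL9 itself had 0.953, TAGLN 0.945, ACTA1 0.918 and TPM2 0.315. RAP2B, PLD5 and PIK3AP1 were most like the mean of the 3 YAP target genes, with 0.992, 0.973 and 0.972. The 8 points share their tables and conditions in groups of 2, so these values describe a likeness only.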

How the data were processed

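RNA-seq of 8 Hep3B libraries was analysed from the 2 tables that the authors deposited, which hold expected counts (estimated reads per RefSeq transcript, not normalized). STAR, Partek and build hg38 come from the submitters' processing notes, and their roles and versions are not given in the sources used here. No deposited transcript has a sum under 10 counts across its table. Counts were summed by gene name and rounded. Each table was fitted with edgeR 4.0.16 under R 4.3.3 (TMM factors, filterByExpr, glmQLFit and the two-sided glmQLFTest), with genes called at a Benjamini-Hochberg adjusted p under 0.05 over all genes tested. A prior count of 2 was used for log2 CPM of single libraries. To compare the perturbations, their log2 fold changes were contrasted in one model of the 8 libraries. Depth limited genes with few counts, for which exact intervals on summed counts are given. Groups came from the labels, and 0 columns were left without a library.

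The genes and lists were chosen with earlier results of these data known. From each list, at most 6 genes past the threshold were named by smallest p, and up to 4 in all by the largest change in the knockout table (mean counts of 100 or more). The result of 1 list is not reported here. Gene positions and overlaps came from GENCODE 29, and promoter windows from RefSeq. The alternatives were other scaling factors, DESeq2 1.42.0, other filters, the library number as a block, a single fit, leading transcripts, offsets for GC content and length (mgcv 1.9.3) and leaving out each library. The steps were tested on simulated data.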

Additional observations from a re-analysis of the deposited data

Results flagged for a closer look

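For 2 genes of the lists the knockout and siRNA effects differed by a direct test, the contrast between the perturbations in the fit of all 8 libraries (edgeR, adjusted p under 0.05). For CCDC80 the effect in the knockout table exceeded that in the siRNA table by 6.34 on the log2 scale. CCDC80 was at most 0.933 CPM in all control siRNA and STAT6 siRNA libraries. For LUM the difference was 8.21, and its siRNA libraries held 0 to 1.02 CPM. With 2 libraries in each condition, no single library could be tested as an outlier.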

How the results depend on the processing

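The number of genes called in the knockout table, 849 with all 4 libraries, was 2160 with DESeq2, 518 with at least 10 counts in every library, 438 in one fit of all 8 libraries, 542 with the leading transcript only, 459 with GC content and length offsets and 0 with these offsets and the replicate block. It ranged from 21 to 2298 as each library was left out. Of the 8 genes described, 4 were called with all libraries, 0 with the block and the offsets, and 0 to 7 as each library was left out. CTGF was added by DESeq2, ACTA1 was not tested with at least 10 counts in every library and was lost with the offsets, and TPM1 was lost in the fit of all 8 libraries. The library number is shared by the labels only. Over all genes, the difference between libraries 2 and 1 had a correlation of -0.0849 between the conditions of the knockout table and of 0.873 between those of the siRNA table. With the number as a block 982 genes were called in the knockout table. In the siRNA table, where 0 genes were called, the replicate block gave 62 genes with 3 of those described (ACTA1, TAGLN and MYL9), and the block with the offsets gave 361 with 5, adding CTGF and ANKRD1. Leaving out each library in turn gave 0 genes there. The 11 genes that differed between the perturbations became 5 with upper-quartile factors, 167 with DESeq2, 1 with at least 10 counts, 97 with the block (MYL9 among them), 4 with the leading transcript and 41 with the offsets, and 0 to 127 on leaving out each library. The cause was not tested. Of 223 other values of single genes, 204 moved by less than the spread between libraries and 19 by more. Where an arm was left with 1 library, it was assumed to vary like the other groups.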
